A study of Mus musculus with 11 samples.

Results

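Transcripts of 10 genes of fat uptake and lipid droplets were followed in mouse liver: Cd36 and Lpl, which act in uptake, the fatty acid carriers Fabp1, Fabp2 and Fabp4, the acyltransferase gene Mogat1, the droplet proteins Plin2 and Cidec, and the lipase Pnpla2 with its inhibitor G0s2. They were taken as every probe set on the array that the platform annotation gives to exactly 1 of these symbols, which were 18 probe sets of 10 genes among 12393 genes with a probe set. The livers came from 11 male C57BL/6J mice aged 15 to 20 weeks, 5 wild type (WT) and 6 lacking glutathione reductase (Gsr-null), and were taken between 2 and 4 in the afternoon. The labels name no treatment. The labels call the samples biological replicates. Diet, feeding state, littermate status and the way the Gsr allele was disrupted are not given in the sources used here. Samples are named by genotype and by the replicate number in their titles. Gsr-null titles also carry a different number in brackets, which is not used here: Gsr-null samples 4 and 5 are bracketed as 7 and 8.

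A liver cell takes up fatty acids from plasma, with CD36 as a membrane receptor for long-chain fatty acids, and binds them in the cytosol with fatty acid binding proteins. Fatty acids are joined to glycerol as triglyceride and stored in lipid droplets, which perilipins coat and CIDE proteins enlarge by fusion, and lipases release them again. Many of these genes are known targets of the nuclear receptors PPAR-alpha, the main one in hepatocytes, and PPAR-gamma, the main one in adipocytes, and Cidec, Cd36 and Mogat1 are known to be induced in fatty liver.

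The log2 value of Gsr, the disrupted gene, averaged 6.82 ± 0.126 (SD, n = 5) across WT livers. Across Gsr-null livers it averaged 4.99 ± 0.207 (SD, n = 6), without overlap between the groups (limma adjusted p = 1.82e-05), which matches the labels. Whole profiles correlated at 0.935 to 0.989 (Pearson's r across 9560 tested probe sets) for all pairs of samples. For Gapdh and Actb, the control probe sets at the 3' end exceeded those at the 5' end, which depends on RNA quality and labelling, by 0.54 to 0.70 in WT samples 2 and 4 and Gsr-null samples 1, 2 and 3, and by 1.20 to 1.75 in the other 6. Hepatocyte markers were near the top of the scale in every sample (mean of 5 genes 13.63 to 13.98). In bulk liver RNA, fewer cells of a type and less RNA per cell cannot be told apart.

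No member passed the test for a difference between the genotypes, but the Gsr-null livers differed widely among themselves. Of the 8 member genes whose level passed the filter (a log2 value above 4 in at least 5 samples), 0 were called by limma at an adjusted p under 0.05, against 0.387% of all 9560 tested probe sets. None of the 10 genes had groups without overlap, which 1.36% of tested probe sets had. Cidec and Mogat1 did not pass the filter, since they were above 4 in 2 and 3 samples, and their differences come from a fit of all 22626 probe sets without a filter, where 0.15% were called. For most members the high values were those of Gsr-null samples 4 and 5. These were the 2 highest of the 11 samples for 7 of the 10 members (Cd36, Fabp2, Fabp4, Mogat1, Plin2, Cidec and G0s2), against 7.22% of all tested probe sets. The 7.22% covers only probe sets that passed the filter, which Cidec and Mogat1 did not. Among the 8 members that did, this pair led for Cd36, Fabp2, Fabp4, Plin2 and G0s2. No other pair of samples topped as many tested probe sets as this one, out of 55 possible pairs. Both samples carried reduced Gsr, at 4.94 and 5.09.

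**Figure D1:**
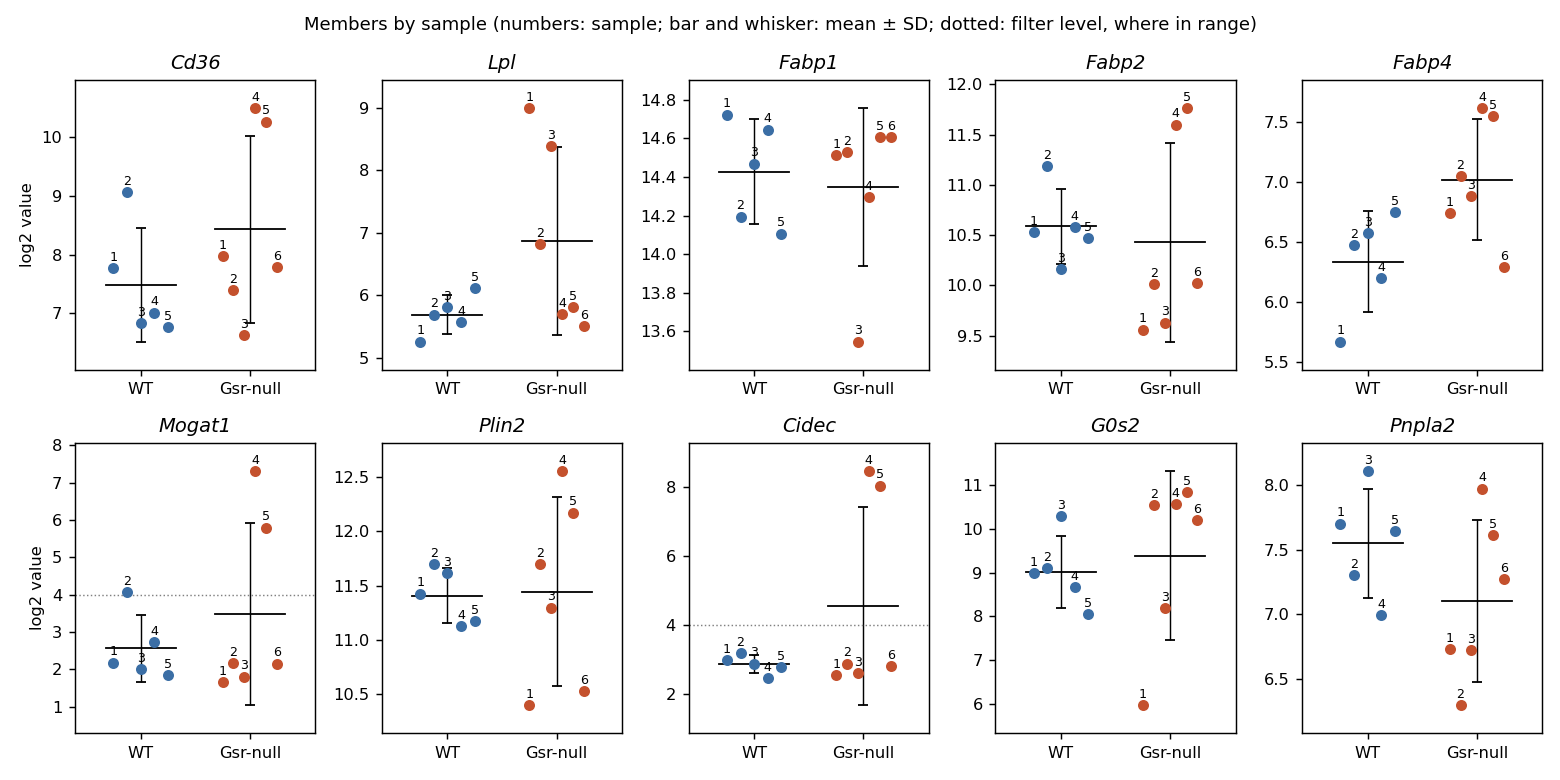
Log2 value of each member's representative probe set (vertical axis, with its own range in each panel and not starting at 0) in 5 WT and 6 Gsr-null livers. Points carry the sample number, bars are means and whiskers 1 SD, and the dotted line marks the filter level of 4 where it is in range; Gsr-null samples 4 and 5 stand above all others for Cd36, Mogat1, Plin2 and Cidec, while Lpl is highest in Gsr-null samples 1 and 3.

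Since several members were high in the same 2 samples and PPAR targets are common among them, the bases before their start sites were searched for the direct repeat that PPAR and its partner RXR are known to bind, AGGTCANAGGTCA (DR1, where N is any base). The windows were the 250 bases before each annotated start in RefSeq (build GRCm38.p6), searched on both strands. Entries were found for 8 of the 10 members, all but Lpl and Fabp4. With up to 2 mismatches to the 12 fixed bases, a limit set with the sequences in view, the repeat was found for 4 of the 8 genes, Fabp1, Cd36, Mogat1 and Plin2, and in 3.24% of all 32851 windows. With 1 mismatch it was found for 1, Fabp1, and in 0.484% of all windows. Fabp1 was not among the members highest in the same 2 samples on its representative probe set. Cd36, Mogat1 and Plin2 were, but so were Fabp2, Cidec and G0s2, where no repeat was found. Pnpla2 had neither. Whether PPAR had a part in the high values was not tested. Of the 8 genes with an entry, only Fabp1 and Pnpla2 were not led by the 2 samples. On its second probe set Fabp1 was led by them too. The matches are thus too few to compare the members high in the 2 samples with the others. The sequences below are shown because they hold these matches, with the matched 13 bases in capitals, and Cidec is shown as the member with the widest range of values. Each runs 5' to 3' toward the start site.
Fabp1 (chr6:71199629-71199878, plus strand): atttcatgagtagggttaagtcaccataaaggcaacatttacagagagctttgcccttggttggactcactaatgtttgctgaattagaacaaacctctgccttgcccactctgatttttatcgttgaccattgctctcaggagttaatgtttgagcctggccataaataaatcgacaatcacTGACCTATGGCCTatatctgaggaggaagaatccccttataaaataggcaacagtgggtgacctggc
Cd36 (chr5:17835897-17836146, minus strand): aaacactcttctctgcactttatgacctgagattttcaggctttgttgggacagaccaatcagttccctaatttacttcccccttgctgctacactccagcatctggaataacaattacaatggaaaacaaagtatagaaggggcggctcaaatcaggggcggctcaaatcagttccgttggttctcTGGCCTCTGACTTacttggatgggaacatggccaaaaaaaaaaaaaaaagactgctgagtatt
Mogat1 (chr1:78510810-78511059, plus strand): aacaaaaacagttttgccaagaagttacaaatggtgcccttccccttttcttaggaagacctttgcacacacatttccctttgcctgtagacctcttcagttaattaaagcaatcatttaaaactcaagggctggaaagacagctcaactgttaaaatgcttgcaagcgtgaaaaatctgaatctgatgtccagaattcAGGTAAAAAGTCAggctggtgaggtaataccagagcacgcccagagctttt
Plin2 (chr4:86670060-86670309, minus strand): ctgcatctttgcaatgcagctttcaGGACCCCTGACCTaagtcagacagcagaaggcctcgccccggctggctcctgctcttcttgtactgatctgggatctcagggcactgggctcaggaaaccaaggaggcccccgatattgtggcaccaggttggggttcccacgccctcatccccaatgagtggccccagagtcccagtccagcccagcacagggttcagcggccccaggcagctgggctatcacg
Cidec, first start (chr6:113435761-113436010, minus strand): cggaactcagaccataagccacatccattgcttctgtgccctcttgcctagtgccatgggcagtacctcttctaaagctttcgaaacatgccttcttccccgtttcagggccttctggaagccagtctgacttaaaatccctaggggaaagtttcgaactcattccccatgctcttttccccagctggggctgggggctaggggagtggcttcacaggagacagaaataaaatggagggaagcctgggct
Cidec, second start (chr6:113434765-113435014, minus strand): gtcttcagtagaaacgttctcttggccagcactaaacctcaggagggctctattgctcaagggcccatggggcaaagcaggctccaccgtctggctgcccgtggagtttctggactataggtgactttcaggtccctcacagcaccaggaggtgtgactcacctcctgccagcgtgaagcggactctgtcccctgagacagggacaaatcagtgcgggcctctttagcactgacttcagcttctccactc

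The match of Fabp1 lay at -67 to -55 relative to the start and read AGGCCATAGGTCA on the strand of the motif, and those of Cd36 and Mogat1 at -63 to -51 and -51 to -39. In Plin2 the match lay farther out, at -225 to -213. The single half-site AGGTCA, which is part of the repeat and overlaps it in Fabp1 and Plin2, was exact in the windows of Cd36, Fabp1 and Plin2, and in 14.0% of all windows. For Fabp2, Cidec, G0s2 and Pnpla2 no repeat within 2 mismatches was found in these windows, which says only that these letters are not there. 

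**Figure D2:**
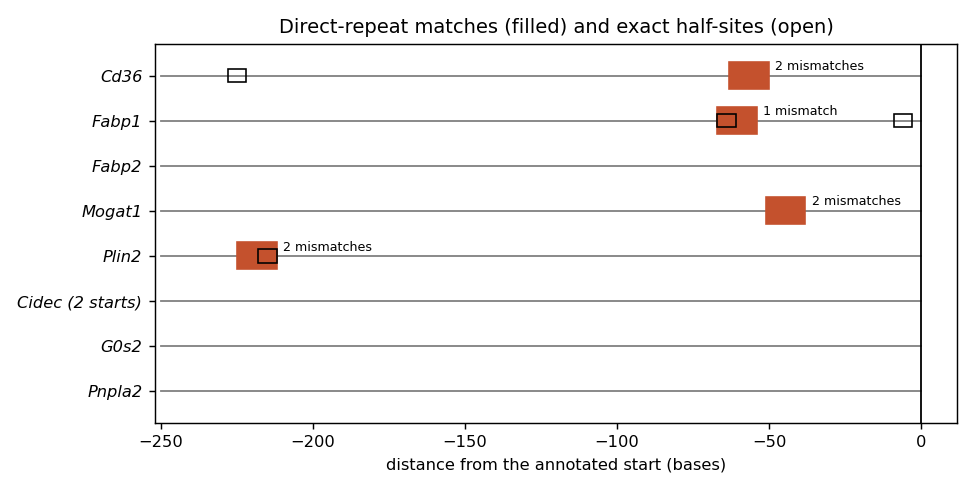
Positions of matches to the direct repeat with up to 2 mismatches (filled) and of exact half-sites (open) in the 250 bases before the annotated start of 8 members, with distance from the start in bases on the horizontal axis. Matches lie within 67 bases of the start in Cd36, Fabp1 and Mogat1 and at -225 to -213 in Plin2; the line of Cidec stands for both of its starts, without a match.

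Cd36, the membrane receptor that takes up long-chain fatty acids, was 7.77, 9.06, 6.83, 7.02 and 6.76 in WT samples 1 to 5. In Gsr-null samples it ran from 6.64 through a median of 7.88 to 10.50, with 10.50 in sample 4 and 10.26 in sample 5. Those 2 lay above every WT sample, by 1.44 and 1.21 on the log2 scale, whereas the other 4 Gsr-null samples lay within the WT range or just below it. WT sample 2 came next. The genotypes differed by 0.94 (Gsr-null minus WT, SE 0.705, 95% interval -0.59 to 2.47, limma adjusted p = 0.867), and without Gsr-null samples 4 and 5 it was -0.04. A second probe set showed the same order at its top, at 9.73 in Gsr-null sample 4, 9.46 in sample 5 and 7.18 in WT sample 2. On the remaining probe set, at or below 3.77 in the other 9 samples, the same Gsr-null samples reached 7.15 and 6.93.

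Lpl, the lipase that frees fatty acids from plasma lipoproteins and is known to be low in adult liver, showed a different order. It was 5.26, 5.69, 5.81, 5.56 and 6.11 in WT samples 1 to 5. Gsr-null samples 1, 3 and 2 were at 9.01, 8.39 and 6.82, above every WT sample, and samples 4, 5 and 6 at 5.69, 5.81 and 5.50, inside the WT range. The samples that were high for Cd36 were thus not high for Lpl. Gsr-null samples 1 and 3 were the 2 highest for 2.88% of all tested probe sets. The mean difference of Lpl was 1.18 (SE 0.599, 95% interval -0.12 to 2.49, limma adjusted p = 0.662), and limma called it under no omission of samples. It was 0.76 without Gsr-null sample 1, 0.88 without sample 3, 0.82 without samples 2 and 3, and 1.74 without samples 4 and 5 (SE 0.599, limma adjusted p = 0.287). The other Lpl probe set, below 4 in 9 samples, was highest in the same Gsr-null samples, 1 at 6.94 and 3 at 5.48. Kupffer cell and macrophage markers, which belong to cells known to make Lpl, had means of 7.42, 6.89 and 7.14 in Gsr-null samples 1, 2 and 3 and of 6.12 to 6.53 in samples 4, 5 and 6, against 6.36 to 7.22 in WT, and 5 of their 6 tested genes had a negative difference. Their part in the Lpl values was not tested.

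Fabp1, the main fatty acid binding protein of the hepatocyte cytosol, was near the top of the measured scale in all samples. It was 14.72, 14.20, 14.47, 14.65 and 14.11 in WT samples 1 to 5 and ran from 13.55 through a median of 14.52 to 14.61 in Gsr-null samples. The lowest was Gsr-null sample 3, and the other 5, at 14.30 to 14.61, lay inside the WT range. The difference was -0.08 (SE 0.203, 95% interval -0.52 to 0.36, limma adjusted p = 0.99). On the second Fabp1 probe set Gsr-null sample 3 was at 14.11, inside the WT range of 14.08 to 14.33, so the low value rests on 1 probe set. There Gsr-null samples 4 and 5 were the highest, at 14.46 and 14.36.

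Fabp2, the binding protein named for the intestine and also made in liver, was 10.53, 11.19, 10.16, 10.58 and 10.47 in WT samples 1 to 5. Gsr-null samples 4 and 5 were at 11.60 and 11.77, above every WT sample, and samples 1, 2, 3 and 6 at 9.56 to 10.02, below every WT sample. The Gsr-null values thus lay on both sides of the WT range and none inside it. The mean difference was -0.15 (SE 0.414, 95% interval -1.06 to 0.75, limma adjusted p = 0.991). Without samples 4 and 5 it was -0.78 (SE 0.206, limma adjusted p = 0.153). Of the 5 enterocyte markers on the array, Vil1, Lct and Cdx2 were at or below 3.46 in every sample. Anpep, a peptidase, was 5.70 to 7.21 in WT and 5.90 to 6.97 in Gsr-null samples. Apoa4, which liver also makes, reached 13.12 and 13.04 in Gsr-null samples 4 and 5, the others running from 8.83 to 11.21 (difference 1.48, limma adjusted p = 0.484).

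Fabp4, the binding protein of adipocytes, macrophages and endothelium, had the smallest p of the members but was not called. It was 5.67, 6.47, 6.57, 6.20 and 6.75 in WT samples 1 to 5 and ran from 6.29 through a median of 6.97 to 7.62 in Gsr-null samples. Gsr-null sample 6 lay inside the WT range, and so, by a small margin, did sample 1 at 6.74, while the other 4 lay above every WT sample. The difference was 0.69 (SE 0.259, 95% interval 0.12 to 1.25, unadjusted p = 0.0207, limma adjusted p = 0.469), and an exact two-sided permutation test over the 462 splits gave p = 0.0433 (0.433 after Benjamini-Hochberg adjustment over the 10 members). Without Gsr-null samples 4 and 5 the difference was 0.41 (SE 0.236, limma adjusted p = 0.562), and with the probe sets of a gene averaged it was 0.30 (limma adjusted p = 0.388). A second probe set differed by 0.39 (SE 0.121, unadjusted p = 0.00734, limma adjusted p = 0.314), with 5 of 6 Gsr-null samples above every WT sample. These were the only 2 of the 11 tested member probe sets with an unadjusted p under 0.05, which 8.36% of all tested probe sets had, 3.27% with a positive difference. The other 2 Fabp4 probe sets were at or below 2.44 in every sample. Endothelial markers had means of 4.99 to 6.08 in Gsr-null and 5.35 to 5.93 in WT samples, and 0 of 6 tested were called.

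Mogat1, which joins a fatty acid to monoacylglycerol and is known to be low in lean mouse liver, was 2.18, 4.06, 2.01, 2.73 and 1.84 in WT samples 1 to 5. In Gsr-null samples 4 and 5 it was 7.31 and 5.79, and in the other 4 it was 1.67 to 2.16. As for Cd36, WT sample 2 came next. Sample 4 exceeded the highest WT sample by 3.24 and sample 5 by 1.73 on the log2 scale. Over all samples the difference was 0.92 (SE 1.01, 95% interval -1.27 to 3.11, limma adjusted p = 0.874 in the fit without a filter) and -0.62 without those 2 samples. This probe set is the only one for Mogat1, and its values under 4 carry little information on the level.

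Plin2, the perilipin that coats lipid droplets in hepatocytes and is known to follow their fat content, was 11.43, 11.70, 11.62, 11.13 and 11.17 in WT samples 1 to 5. Gsr-null samples 4 and 5 were at 12.56 and 12.17, above every WT sample, and samples 1 and 6 at 10.40 and 10.52, below every WT sample. Samples 2 and 3 were at 11.70 and 11.30. Between the genotypes Plin2 differed by 0.03 (SE 0.36, 95% interval -0.75 to 0.82, limma adjusted p = 0.999), while the SD was 0.871 among Gsr-null and 0.256 among WT samples. Without samples 4 and 5 the difference was -0.43 (SE 0.27, limma adjusted p = 0.605).

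Cidec, which enlarges droplets by fusion in adipocytes and in fatty liver, gave the widest range of all members. It was 2.97, 3.18, 2.87, 2.46 and 2.77 in WT samples 1 to 5 and 2.53, 2.88, 2.59 and 2.80 in Gsr-null samples 1, 2, 3 and 6, all under the filter level of 4. In Gsr-null samples 4 and 5 it was 8.46 and 8.04. No sample lay between. Since the other 9 values are under the filter level, the size of the gap and the spread among WT samples are not read as levels of expression. Its mean difference was 1.70 (SE 1.13, 95% interval -0.77 to 4.16, limma adjusted p = 0.786 in the fit without a filter) and -0.15 without samples 4 and 5 (SE 0.146, limma adjusted p = 0.693). The test of means did not call a gene that was above the filter level in 2 of 6 Gsr-null samples and in no WT sample.

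Pnpla2, also called ATGL, is the lipase that starts triglyceride breakdown on droplets. It was 7.70, 7.30, 8.11, 6.99 and 7.65 in WT samples 1 to 5. Gsr-null samples 1, 2 and 3 were at 6.73, 6.30 and 6.72, below every WT sample, and samples 4, 5 and 6 at 7.97, 7.61 and 7.27, inside the WT range. The mean difference was -0.45 (SE 0.297, 95% interval -1.09 to 0.20, limma adjusted p = 0.817). It was -0.29 without Gsr-null sample 2, -0.15 without samples 2 and 3, and -0.79 without samples 4 and 5 (SE 0.25, limma adjusted p = 0.235). The same 3 Gsr-null samples that were low here were the 3 highest for Lpl, and they were the 3 lowest for 2.35% of all tested probe sets. These 3 also form the Gsr-null part of the set with the lower control 3' minus 5' difference, and their part in this was not tested. The second Pnpla2 probe set was at or below 2.04 in every sample.

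G0s2, which inhibits this lipase, was 8.99, 9.09, 10.29, 8.66 and 8.04 in WT samples 1 to 5. Among Gsr-null samples it was lowest in sample 1, at 5.97, and 8.19 in sample 3, and 10.21 to 10.85 in samples 2, 4, 5 and 6. The range was wide in both genotypes, with an SD of 0.821 in WT and 1.93 in Gsr-null samples, and Gsr-null samples 4 and 5 led here by only 0.03 over the next sample. The mean difference was 0.38 (SE 0.807, 95% interval -1.38 to 2.13, limma adjusted p = 0.986). It was 1.06 without Gsr-null sample 1 alone (SE 0.521, limma adjusted p = 0.615), 0.08 without sample 5, and -0.29 without samples 4 and 5. Set beside the lipase, Gsr-null sample 1 was low for both genes and sample 4 high for both, while sample 2 had the lowest Pnpla2 of all samples, 6.30, and a high G0s2, 10.55.

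**Figure D3:**
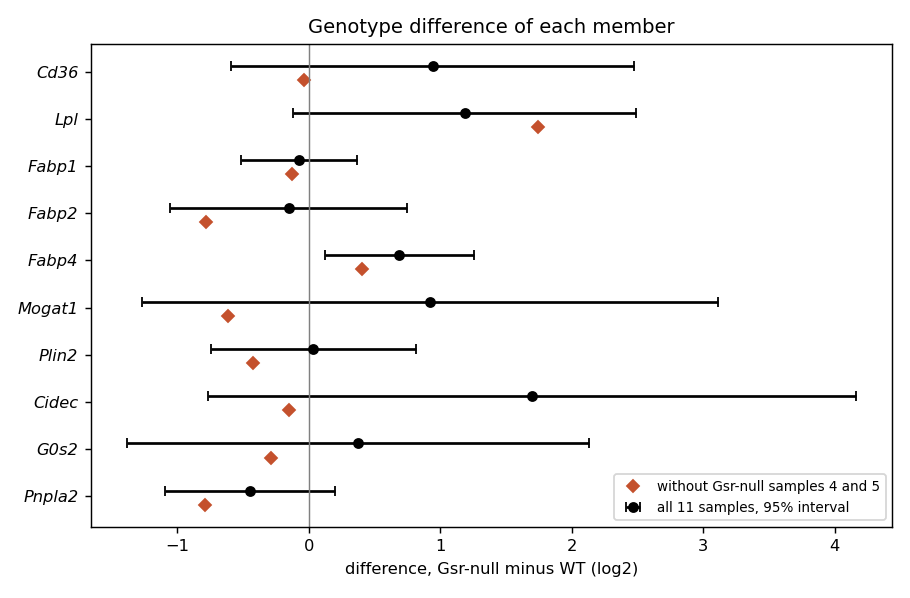
Difference of the mean log2 value, Gsr-null minus WT, for each member over all 11 samples with its 95% interval from limma (black), and after Gsr-null samples 4 and 5 were left out (diamonds). Cidec and Mogat1 come from the fit without a filter; every interval except that of Fabp4 includes 0, and the sign turns for Cd36, Mogat1, Plin2, Cidec and G0s2 when the 2 samples are left out.

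The members' spread among Gsr-null samples was larger than among WT samples for all 10 representative probe sets. For the 8 that passed the filter the ratio of SDs ran from 1.2 for Fabp4 to 4.77 for Lpl; Cidec and Mogat1 are left out of this range, as their WT values are at or under the filter level but for 1. Cidec exceeded 99.9% of tested probe sets in its Gsr-null SD, Mogat1 99.8%, G0s2 99.6%, Cd36 99.2% and Lpl 99.1%, while Fabp1, Fabp4 and Pnpla2 stood at 70.9%, 81.8% and 89.4%. In WT samples Cd36 and G0s2 were also among the more variable, above 98.3% and 97.1% of tested probe sets, whereas Plin2 and Lpl stood at 50.0% and 64.2%. These shares describe the samples and are not a test of unequal variance. Those of Cidec and Mogat1 set genes that did not pass the filter against probe sets that did. How many of all tested probe sets had a larger SD among Gsr-null than among WT samples is not given here. A larger Gsr-null SD is thus not read as particular to the members. Over all tested probe sets, pairs of Gsr-null samples correlated at 0.942 to 0.989 and pairs of WT samples at 0.961 to 0.989.

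**Figure D4:**
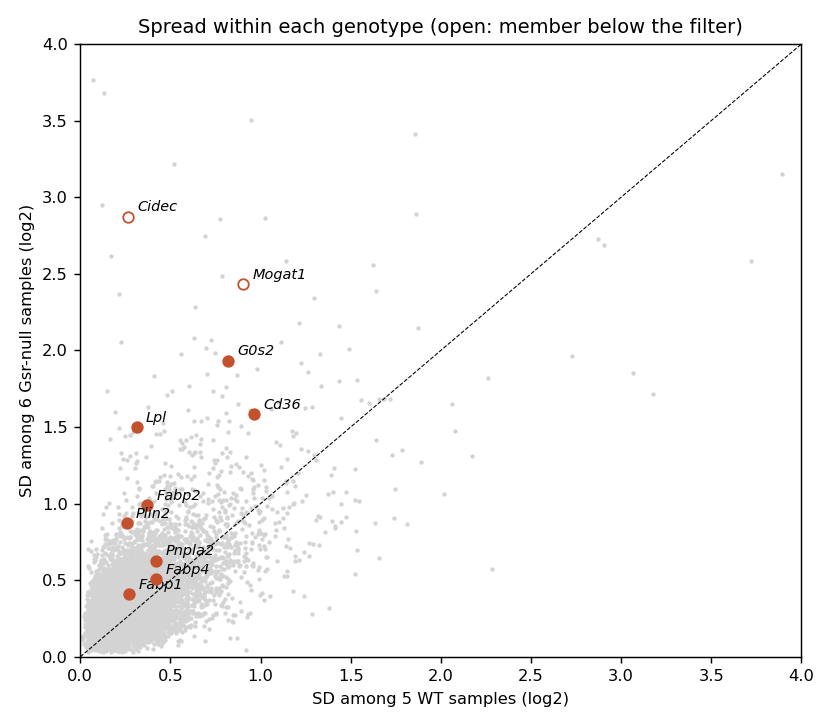
SD of the log2 value among 6 Gsr-null samples (vertical axis) against the SD among 5 WT samples (horizontal axis) for all tested probe sets (grey) and the members (red, open where the gene is below the filter). The dashed line marks equal SDs; all 10 members lie above it, with Plin2 at 0.871 against 0.256; the WT values of the open points are mostly background.

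The genotype differences of the members were also taken within the 2 sets of samples that differ in the control 3' minus 5' difference. Within the 6 samples of higher difference (3 WT, and Gsr-null samples 4, 5 and 6) the Gsr-null minus WT difference was 3.56 for Cidec, 3.08 for Mogat1, 2.40 for Cd36 and -0.06 for Lpl. Within the 5 samples of lower difference it was -0.15, -1.52, -0.70 and 2.45. Across the members 8 of 10 had opposite signs in the 2 sets, and only Fabp4 (0.82 and 0.55) and Pnpla2 (-0.20 and -0.56) kept theirs, so for the other 8 the pooled difference does not hold within both sets. Gsr-null samples 4, 5 and 6 were at 1.20, 1.25 and 1.24 on this measure, and sample 6 had Cidec at 2.80 and Cd36 at 7.80. The part of this measure in the member values was not tested.

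Other genes of the pathway were taken from 7 lists that leave out the members. Of 96 listed genes 82 were on the array and 64 passed the filter, and limma called 0 of the 64, against 0.432% of 6022 tested genes, and 5 had an unadjusted p under 0.05, against 8.78%. Of the 64, 33 had a positive and 31 a negative difference, with a median of 0.0018 against -0.03 over all tested genes. Gsr-null samples 4 and 5 were the 2 highest for 14 of the 64 (21.9%), against 7.22% of all tested probe sets. The lists were chosen with earlier results of these data known.

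Among proteins of the droplet coat and droplet formation, 0 of 10 tested genes were called (6 positive, 4 negative, median 0.05). The 2 with the smallest p were Hsd17b11, a droplet-bound dehydrogenase, at -0.31 (limma adjusted p = 0.797), and Plin5, the perilipin of oxidative tissues, at 0.41 (limma adjusted p = 0.912). 3 genes under the filter, named after their values were seen, were also high in these samples. Cidea, the CIDE protein of brown fat, reached 8.74 and 8.04 in Gsr-null samples 4 and 5, the other 9 samples running from 2.10 to 3.55. Hsd17b13, a droplet protein of hepatocytes, was 7.23 and 7.10 in those 2 and 3.18 to 4.06 in the others, and Plin4, a perilipin of adipocytes, 4.49 and 4.26 against 1.94 to 2.99. For all 3, the 9 other samples lay below both. Hilpda, another gene of the list under the filter, was at or below 2.79 in every sample.

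Triglyceride synthesis genes gave 0 called of 8 tested (4 positive, 4 negative, median 0.03). Lpin2, a phosphatidate phosphatase that makes diacylglycerol, was 9.84, 9.96, 10.05, 9.59 and 10.05 in WT samples 1 to 5. It was 8.40, 8.26 and 8.43 in Gsr-null samples 1, 2 and 3, 9.17 in sample 6, and 9.84 and 9.90 in samples 4 and 5. The difference was -0.90 (SE 0.308, limma adjusted p = 0.389). Without samples 4 and 5 it was -1.33 and passed the test (limma adjusted p = 0.0201). That omission was chosen after the data were seen and takes out the only Gsr-null samples inside the WT range. The pass is therefore not read as support for a difference. Lpin1, the gene of second smallest p in the list, differed by -0.79 (limma adjusted p = 0.867). Gpam, the first acyltransferase of the glycerol route, reached 12.48 and 12.20 in Gsr-null samples 4 and 5, the other 9 samples running from 10.57 to 11.59, a gene named after its values were seen.

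In lipolysis, 0 of 8 genes were called (2 positive, 6 negative, median -0.21). Ces1g, a carboxylesterase of the hepatocyte, was 11.11, 9.49, 9.85, 9.30 and 10.15 in WT samples and 11.07 to 11.50 in Gsr-null samples, where only WT sample 1 reached the Gsr-null range. Its difference was 1.29 (SE 0.271, limma adjusted p = 0.0863), and without WT sample 1 it was 1.57 (limma adjusted p = 0.00345). Without WT sample 2, 3, 4 or 5 it was 1.12 to 1.33 and was not called (limma adjusted p = 0.192 to 0.223). With the replicate number as a block it was 1.26 (limma adjusted p = 0.297). Ces1g was even among the Gsr-null samples, with an SD of 0.184. Among the members' representative probe sets the smallest Gsr-null SD was 0.409, for Fabp1. The second probe sets of Fabp1 and Fabp4 stood close to Ces1g, at 0.200 and 0.204. Ces2a, a related esterase, differed by -0.43 (limma adjusted p = 0.501).

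Fatty acid uptake, binding and activation genes gave 0 called of 10 (8 positive, 2 negative, median 0.08), with Slc27a4, a fatty acid transport protein, at 0.44 (limma adjusted p = 0.856) and Fabp7, the binding protein of brain, at 0.35 (limma adjusted p = 0.805). The lipoprotein lipase system and lipoprotein receptors gave 0 of 8 (5 positive, 3 negative, median 0.09), with Sdc1, a heparan sulfate proteoglycan that clears remnants, at 0.17 (limma adjusted p = 0.926) and Lrpap1, a receptor chaperone, at 0.15 (limma adjusted p = 0.946). Triglyceride secretion gave 0 of 6 (5 positive, 1 negative, median 0.04), with Pla2g12b, which acts in lipoprotein assembly, at 0.34 (limma adjusted p = 0.588) and P4hb, a subunit of the triglyceride transfer protein, at 0.08 (limma adjusted p = 0.976).

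Of the PPARs and related regulators 0 of 14 were called (3 positive, 11 negative, median -0.10). Ppargc1b, a coactivator, differed by -0.79 (SE 0.255, limma adjusted p = 0.343), and Nr1h4, the bile acid receptor, by -0.22 (limma adjusted p = 0.77). Pparg and Ppara were named after their values were seen. Pparg was 4.40, 6.21, 4.05, 4.79 and 4.16 in WT samples 1 to 5, 6.90 and 6.68 in Gsr-null samples 4 and 5, and 3.24 to 4.19 in the other 4. Its 3 highest samples were therefore those of Cd36 and Mogat1, while its mean difference was -0.0007. Of the 14 tested genes of this list, Pparg was the only 1 with Gsr-null samples 4 and 5 as its 2 highest. Over all tested probe sets that share was 7.22%. Ppara was 9.97 and 9.92 in Gsr-null samples 4 and 5, inside the WT range of 9.15 to 10.78.

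**Figure D5:**
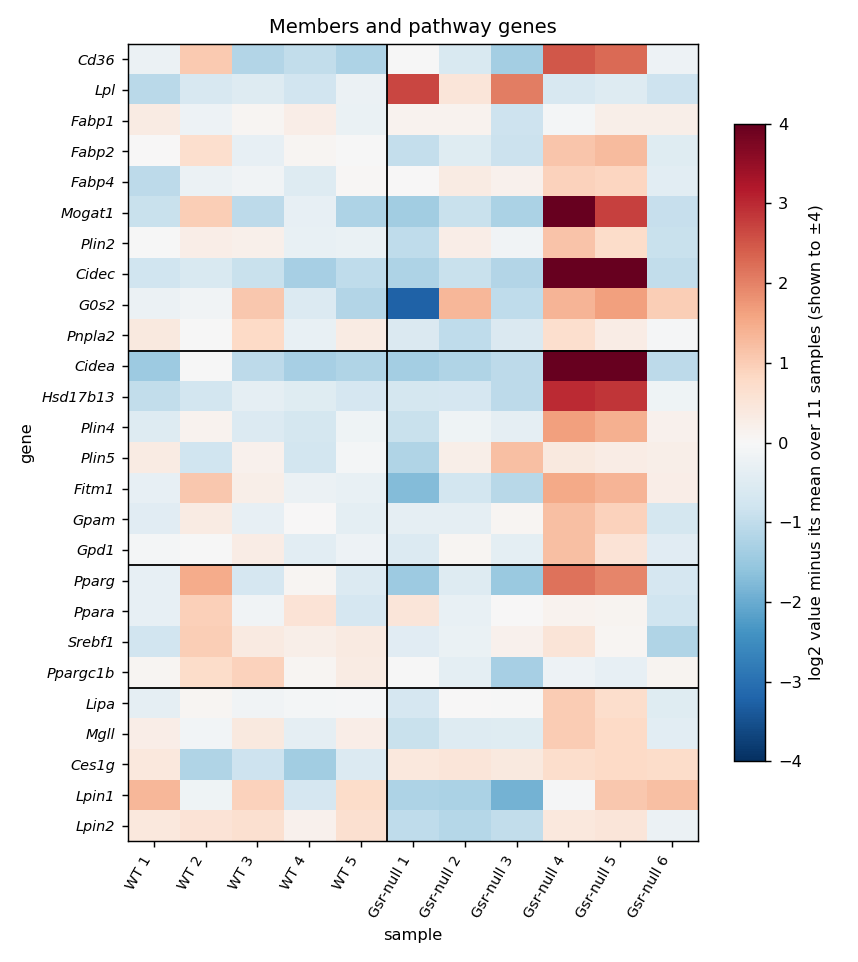
Log2 value minus its mean over the 11 samples (colour, shown to ±4) for the 10 members and for further pathway genes, several of them chosen after their values were seen, by sample. Cidec, Mogat1, Cidea and Hsd17b13 stand out in Gsr-null samples 4 and 5, Lpl in samples 1 and 3, and G0s2 is lowest in sample 1.

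Likeness of profile was measured as the root mean square difference from a member over the 11 samples, after each gene was centred on its own mean, for the 5 tested members whose values spanned more than 2 on the log2 scale. Nearest to Cd36 among 6022 genes were Wfdc2 (0.584), Rdh16, a retinol dehydrogenase (0.632), and Pparg (0.636). Nearest to Plin2 were Chkb, a choline kinase (0.215), Ttc23 (0.237) and Gpd1, the cytosolic glycerol-3-phosphate dehydrogenase (0.252). Fabp2 lay nearest to Tlcd1 (0.216), Khdrbs3 (0.233) and Ropn1l (0.248). For Lpl the nearest were Hdhd3 (0.687), Gfra1 (0.699) and Qsox1 (0.71). For G0s2 they were Igfbp5 (0.883), Pex11a, a peroxisome protein (0.905), and Ces1e (0.95). The measure tends to grow with a member's span, which was 2.16 for Plin2 and 4.88 for G0s2. Its values are therefore not compared between members. Cidec and Mogat1 were searched without the filter among up to 12392 genes, which was chosen after the data were seen. Nearest to Cidec was Cidea at 0.34, then Mogat1 at 0.751 and Hsd17b13 at 0.796. Nearest to Mogat1 were Wfdc2 (0.673), Cyp2c38 (0.72) and Ly6d (0.747). Since Cidec was under the filter level in all samples but Gsr-null 4 and 5, likeness to it rests on those 2 samples.

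Adipocytes express Cidec, Cidea, Plin4, Cd36 and Fabp4, so fat tissue in a sample was checked by its defining markers. Adipoq, Lep and Retn, the hormones that adipocytes secrete, were at or below 2.44 in all 11 samples, Gsr-null samples 4 and 5 included. None of the 4 adipocyte markers on the array passed the filter, and Cidea was the 1 that was high. The mean of the list was 3.45 and 3.25 in those samples and 1.71 to 2.05 in the others, through Cidea. Stellate cell and fibroblast markers had means of 5.27 to 5.50 in WT samples. In Gsr-null samples 1 to 5 the means were 5.63 to 6.09, above every WT sample, and in sample 6 the mean was 5.07. Of these markers 0 of 4 tested were called (2 positive, 2 negative). The collagen genes Col1a2 and Col3a1 differed by 0.89 (unadjusted p = 0.0108, limma adjusted p = 0.363) and 0.87 (limma adjusted p = 0.736). Dcn and Reln differed by -0.10 and -0.19, so the markers did not move together. Their part in the member values was not tested. Muscle markers had means of 2.14 to 2.39 in Gsr-null and 2.09 to 2.21 in WT samples, and neutrophil markers 2.18 to 3.68 and 2.03 to 2.35. The highest neutrophil mean was that of Gsr-null sample 1, the sample highest for Lpl and lowest for G0s2 and Plin2, and the part of these cells in those values was not tested. That mean of 3.68 came from S100a8 (6.63) and S100a9 (6.50), while Elane, Mpo and Camp were at or below 1.91 in that sample.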

How the data were processed

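Total liver RNA was labelled with biotin, per the labels' protocols, and read on Affymetrix arrays, 1 per sample, as the probe set names show. The authors deposited log2 values per probe set, made with GCRMA per the submitters' processing notes; no source used here gives its version, filters or batches. The log2 scale was read from the range of the values. The 64 Affymetrix controls were left out, and 9560 of 22626 probe sets, those exceeding 4 (log2) in 5 samples or more, were tested with limma 3.58.1 in R 4.3.3 (lmFit, eBayes, Benjamini-Hochberg over all of them, adjusted p under 0.05). Each gene's representative is the probe set of highest mean among those tested, so levels are not compared between genes. Probe sets ending in _a_at, as for Cd36, Fabp1, Fabp4 and Pnpla2, bind several transcripts.

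The members, lists and tests were chosen with earlier results of these data known. Named genes are the members, Gsr, the 2 genes of smallest p of each list where none was called, the 3 nearest profiles, and genes named after their values were seen, so marked. The fit was tested on simulated data for Gsr-null against WT over 9560 probe sets and recovered 79% of changes of 1 and 97% of changes of 2 on the log2 scale, with 5.38% of calls not planted. These shares are for planted changes over all tested probe sets, and recovery at the spread of the members was not tested. Among the tested members the SE ran from 0.203 for Fabp1 to 0.807 for G0s2. Lpl, at a difference of 1.18, was not called (limma adjusted p = 0.662). A member that was not called is therefore not read as unchanged. The number of arrays, 5 and 6, limits precision. Replicate numbers did not pair the samples. Alternatives covered filters, scaling, variance models, blocks, thresholds and omitted samples. Figures were drawn with matplotlib 3.10.9.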

Additional observations from a re-analysis of the deposited data

Results flagged for a closer look

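Of 50 sets of same-genotype values, 2 held a sample far from its group, where chance would give 2.5. Fabp1 was 13.5 in Gsr-null sample 3, while the remaining 5 Gsr-null livers ran from 14.3 to 14.6, on 1 of its 2 probe sets. Ppargc1b was 3.95 in the same sample, against 4.91 to 5.41. The paired high values of Gsr-null samples 4 and 5 cannot be picked out this way, since each is the other's neighbour.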

How the results depend on the processing

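Leaving out Gsr-null samples 4 and 5 together was chosen after the data were seen. Over 26 alternatives, 0 members were called by limma under any that it fitted, and 228 of 245 member values stayed on the same side of 0 and of the threshold. The filter with a log2 value above 6 leaves out members under it. Without Gsr-null samples 4 and 5, Cd36 became -0.036, Mogat1 -0.62, Plin2 -0.43, Cidec -0.15 and G0s2 -0.29 (adjusted p 0.557 to 0.988), and Lrpap1 -0.058. With array weights Fabp2 became 0.16, and without Gsr-null samples 2 and 3 Fabp1 became 0.077, Fabp2 0.15 and P4hb -0.0058. The exact permutation test passed Fabp4 at 0.69 without adjustment. With 1 sample left out Cd36 was 0.53 to 1.33, Mogat1 0.15 to 1.29, Cidec 0.92 to 2.10, Lpl 0.76 to 1.46, Fabp4 0.52 to 0.84, G0s2 0.08 to 1.06, Pnpla2 -0.62 to -0.29, Plin2 -0.19 to 0.24, Fabp1 -0.16 to 0.082 and Fabp2 -0.42 to 0.019. Probe sets called higher and lower, 16 and 21, became 7 and 7 with the filter at 6, 6 and 4 without Gsr-null samples 2 and 3, 25 and 38 without samples 4 and 5, and 25 higher at an adjusted p under 0.1. With 1 sample left out they were 9 to 24 higher and 5 to 19 lower, the first moving by over 1.5 times without WT sample 5 (9) and the second without any of the 5 WT samples or without Gsr-null samples 2 or 3 (5 to 12). Of the pathway genes 0 were called, but 1, Ces1g, with the higher and lower 3' to 5' samples blocked (1.35), at an adjusted p under 0.1 (1.29) or without WT sample 1 (1.57), and 1, Lpin2, without Gsr-null samples 4 and 5 (-1.33). The causes were not tested, beyond fewer samples or probe sets by construction. Rescaling moved the median difference of all tested probe sets from -0.03 to 0.0071 at most.

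The replicate numbers share no stated animal, and the correlations between deviations of samples sharing a number were -0.173, 0.0361, -0.0561, -0.243 and -0.171, with 0 of 5 WT samples closest to their own number. With the replicate block 2 probe sets were called higher and 1 lower, and 0 members.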
